A study of Rattus norvegicus with 6 samples.

Results

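The insulin-like growth factor (IGF) family described here comprises 10 genes, listed by gene name. They are 2 ligands (Igf1 and Igf2), 3 receptors (Igf1r, Igf2r and Insr) and 5 binding proteins (Igfbp2, Igfbp3, Igfbp4, Igfbp5 and Igfbp7). All 10 had a single row among the 22250 genes of the deposited table. RNA was sequenced from neonatal rat cardiomyocytes, heart muscle cells isolated with collagenase from wild-type Sprague-Dawley rats aged 1 day and cultured in medium that held 10% foetal bovine serum. Of the 6 libraries, 3 came from cells given the solvent DMSO and 3 from cells given 40 µM 3Cl-HBA, each for 48 h. 3Cl-HBA is a compound used to activate the lactate receptor named in the series title. Both groups shared the genotype, the medium and the serum, which is itself a source of growth factors. Libraries held 13240800 to 17202191 reads, with 16460 to 16671 genes detected. The labels give the libraries numbers within each treatment but not whether they came from separate cultures or animals, so the p-values measure only the spread between these libraries, which may be technical.

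IGF1 and IGF2 are small secreted hormones that signal through the tyrosine kinase receptor encoded by Igf1r and, with differing affinity, through the insulin receptor encoded by Insr. The receptor encoded by Igf2r, also known as the cation-independent mannose 6-phosphate receptor, has no kinase and carries IGF2 and lysosomal enzymes to lysosomes. Binding proteins hold IGFs outside the cell, prolong their life and limit or present them to receptors. In the heart the system is known for driving cardiomyocyte growth and survival through PI3K-AKT and RAS-ERK signalling.

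The ends of the family's order of expression were the same in every library, and 0 of the 10 members passed the treatment test. Igfbp7 and Igf2r stood far above the other members, Igf2 was the lowest, and Igf2r had the least scatter between replicates within each treatment. The promoters of the 2 most abundant members and of Igf2 are shown first because they mark the ends of this order. Each run is the 150 bases just before the RefSeq start in assembly GRCr8, 5′ to 3′ on the gene's strand, with capitals marking matches on either strand to 4 motifs that are spelled out after the sequences. All 10 members matched a promoter entry, and Igf2 had 2 starts, which gene-level counts do not separate.
Igfbp7 (chr14:31091586-31091735, plus strand): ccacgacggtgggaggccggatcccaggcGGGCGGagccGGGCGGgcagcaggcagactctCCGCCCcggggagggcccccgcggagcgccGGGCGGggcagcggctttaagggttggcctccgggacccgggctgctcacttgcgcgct
Igf2r (chr1:50526728-50526877, plus strand): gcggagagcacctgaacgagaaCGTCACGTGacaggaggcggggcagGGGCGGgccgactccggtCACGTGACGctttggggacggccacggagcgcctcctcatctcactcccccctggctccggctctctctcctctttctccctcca
Igf2, upstream start (chr1:207253981-207254130, minus strand): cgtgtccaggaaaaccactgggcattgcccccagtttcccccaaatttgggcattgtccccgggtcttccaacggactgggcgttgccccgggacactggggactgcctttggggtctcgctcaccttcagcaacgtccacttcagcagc
Igf2, downstream start (chr1:207250476-207250625, minus strand): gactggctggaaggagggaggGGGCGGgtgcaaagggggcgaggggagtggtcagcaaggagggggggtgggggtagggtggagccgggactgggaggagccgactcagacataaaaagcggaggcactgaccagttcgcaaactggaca

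These matches are a description of the letters only, counted in the 250 bases before each start. The GC box, searched as GGGCGG, is known as a site for SP-family factors. Igfbp7 held 4 of them, Igf2r 2, and Igf1r, Igfbp2 and the downstream start of Igf2 1 each, and 30.5% of the 33469 RefSeq promoters of that length held at least 1. An E-box was searched as CACGTG, a sequence bound by factors of lysosomal and growth genes, and 5.59% of all the promoters held it. Igf2r held 2 E-boxes, and Igf1r and Igfbp2 1 each. The core of the cAMP response element, searched as TGACG, occurred in 18.2% of promoters. Igf2r held 2 of these cores, each sharing letters with an E-box, and Insr held 1. The TATA motif, searched as TATAAA, occurred in 12.9% of promoters, and Igfbp4 was the member that held it, 1 time.

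In the deposited table, whose genome build is not given in the sources used here, the ligand genes lie at chr7:28412198-28486609 on the plus strand (Igf1) and chr1:215828102-215846911 on the minus strand (Igf2). Chromosome 1 also carries Igf1r at chr1:128924966-129206516 and Igf2r at chr1:48176106-48264477, both on the plus strand, and Insr lies at chr12:1680957-1816414 on the minus strand. Igfbp2 (chr9:80118029-80144789, plus strand) and Igfbp5 (chr9:80150211-80167033, minus strand) are neighbours whose 3′ ends face each other. Igfbp3 lies at chr14:87457647-87465374 on the minus strand, Igfbp7 at chr14:33010300-33070190 on the plus strand and Igfbp4 at chr10:86950557-86962578 on the plus strand. Each count is for a whole gene, so exons, introns and transcript forms are not separated.

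Levels of different genes were compared as FPKM, which scales reads to the length of the gene and the total of the library, over all 6 libraries. Igfbp7, a secreted protein that binds IGFs weakly and is made by vascular and stromal cells, had 549.9 ± 53.5 FPKM (SD, n = 6 libraries). Igf2r followed at 176 ± 6.87 FPKM. Among all genes of the table, Igfbp7 lay at percentile 99.5 to 99.6 and Igf2r at percentile 98.2 to 98.4 across libraries. Next came Igfbp4, a binding protein that restrains IGF action until it is cleaved, at 56.1 ± 2.51 FPKM, and Igfbp3, the main carrier of IGFs in blood, at 38.3 ± 1.63 FPKM. Igf1, the ligand known as the mediator of growth hormone, had 25.8 ± 1.83 FPKM. These 5 genes held ranks 1 to 5 in each of the 6 libraries.

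A group of 4 members at similar level came next. Igfbp2, a binding protein abundant in fetal tissue, had 16.0 ± 1.96 FPKM, and Igf1r had 14.9 ± 1.22 FPKM. Igfbp5, which also binds to extracellular matrix, had 14.3 ± 0.998 FPKM, and Insr had 13.9 ± 0.443 FPKM. Their ranks changed places between ranks 6 and 9 from library to library. Igf2, a fetal growth factor expressed from the paternal allele, was at rank 10 in every library with 9.77 ± 0.373 FPKM. Its place depends on the gene length of 5641 bases in the deposited table, against 1925 bases for Igf1. The reads of Igf2 and Igf1 were similar in number, at 54.3 ± 2.41 and 52.2 ± 1.99 CPM (reads scaled to the library total) with DMSO. The order of the top 2 members depends on length too, at 1102 bases for Igfbp7 and 8787 for Igf2r. By reads Igf2r was the higher, at 1597 ± 12.6 CPM against 569 ± 62.8 CPM for Igfbp7 with DMSO.

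The order was set by mean FPKM in these same libraries, so the steps between neighbours are given as a description with no test. Of the 9 neighbouring pairs, 6 kept their order in all 6 libraries, with ranges that did not overlap. Igfbp7 was 3.11-fold above Igf2r (2.53 to 3.63 across libraries), and Igf2r was 3.14-fold above Igfbp4 (2.88 to 3.38). Smaller steps separated Igfbp4 from Igfbp3 (1.46-fold), Igfbp3 from Igf1 (1.49-fold), Igf1 from Igfbp2 (1.62-fold) and Insr from Igf2 (1.42-fold). The 3 pairs among Igfbp2, Igf1r, Igfbp5 and Insr had overlapping ranges, with ratios of 1.07, 1.04 and 1.03, and held this order in 3, 4 and 5 of the 6 libraries.

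**Figure D1:**
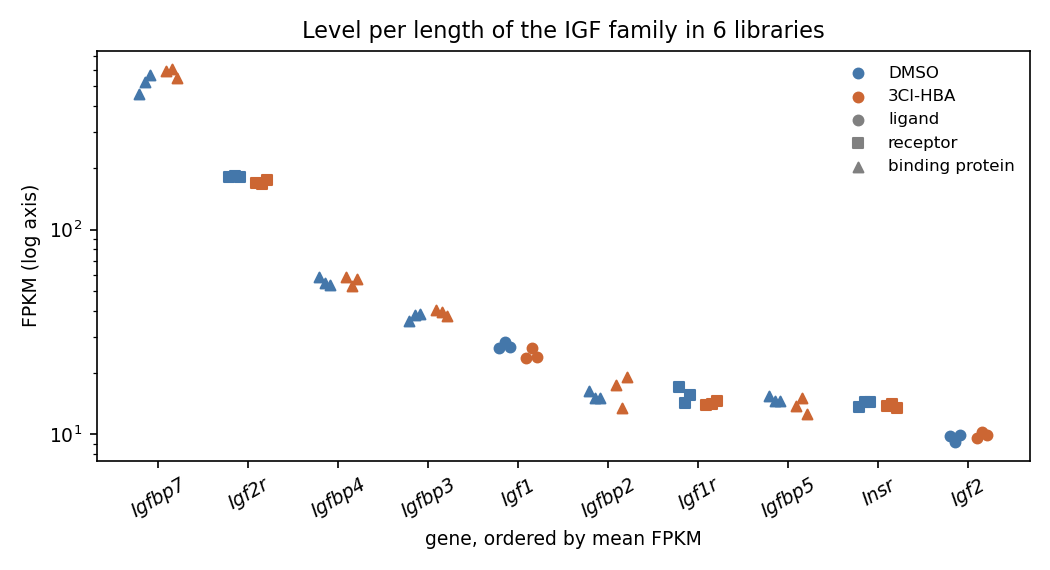
Each point is 1 library, with the 10 genes along the horizontal axis in order of mean FPKM and FPKM on a logarithmic vertical axis; colour gives the treatment and shape the role. Igfbp7 and Igf2r stand apart at the top, Igfbp2, Igf1r, Igfbp5 and Insr lie between 12.6 and 19 FPKM, and Igf2 is lowest.

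Within each role 1 gene supplied most of the transcripts per length. Igf2r made up 85.5% to 86.5% of receptor FPKM in the 6 libraries, Igf1r 6.72% to 8.08% and Insr 6.40% to 7.20%. The receptor that clears IGF2 outnumbered the signalling receptor Igf1r by 10.6-fold to 12.9-fold in transcripts per length, while Igf1r and Insr were close to each other, at a ratio of 0.988 to 1.26. Igfbp7 made up 78.4% to 83.3% of binding protein FPKM. Of the remaining 4 binding proteins, Igfbp4 held 43.7% to 46.6%. Binding proteins summed to 16.2 to 21.9 times the ligands, or 3.27 to 3.95 times without Igfbp7.

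For the comparison of treatments, counts were fitted for all genes together, and differences are log2 fold changes, 3Cl-HBA minus DMSO. All 10 members had enough reads to be tested, with 256 to 25224 reads per library. With edgeR's quasi-likelihood test, 0 of the 10 had a Benjamini-Hochberg adjusted p under 0.05, as had 0% of the 13903 genes tested. Adjusted p of the members ran from 0.959 to 0.998. At an unadjusted p under 0.05 there were 3 members, 1 with a higher and 2 with a lower mean after 3Cl-HBA, against 5.11% of all genes tested (2.52% higher and 2.59% lower). That count of members was 2 with DESeq2 and 2 with limma-voom, and it ran from 1 to 4 when single libraries were left out. DESeq2 and limma-voom also called 0 members. The groups did not overlap for 1 of 10 members, against 10.5% of all genes tested, which is near the background. The median log2 fold change was -0.014 for the members and -0.00052 for all genes tested, and the median absolute value was 0.093 and 0.069.

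The limits for each member were narrow. The 95% interval lay inside 1.5-fold for 10 of 10 members, as for 80.9% of all genes tested. Igfbp2, the member with the fewest reads, had the widest interval, from -7.27% to 25.3% of change from DMSO. Fewer cells of a type and less RNA per cell cannot be told apart in these bulk samples.

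**Figure D2:**
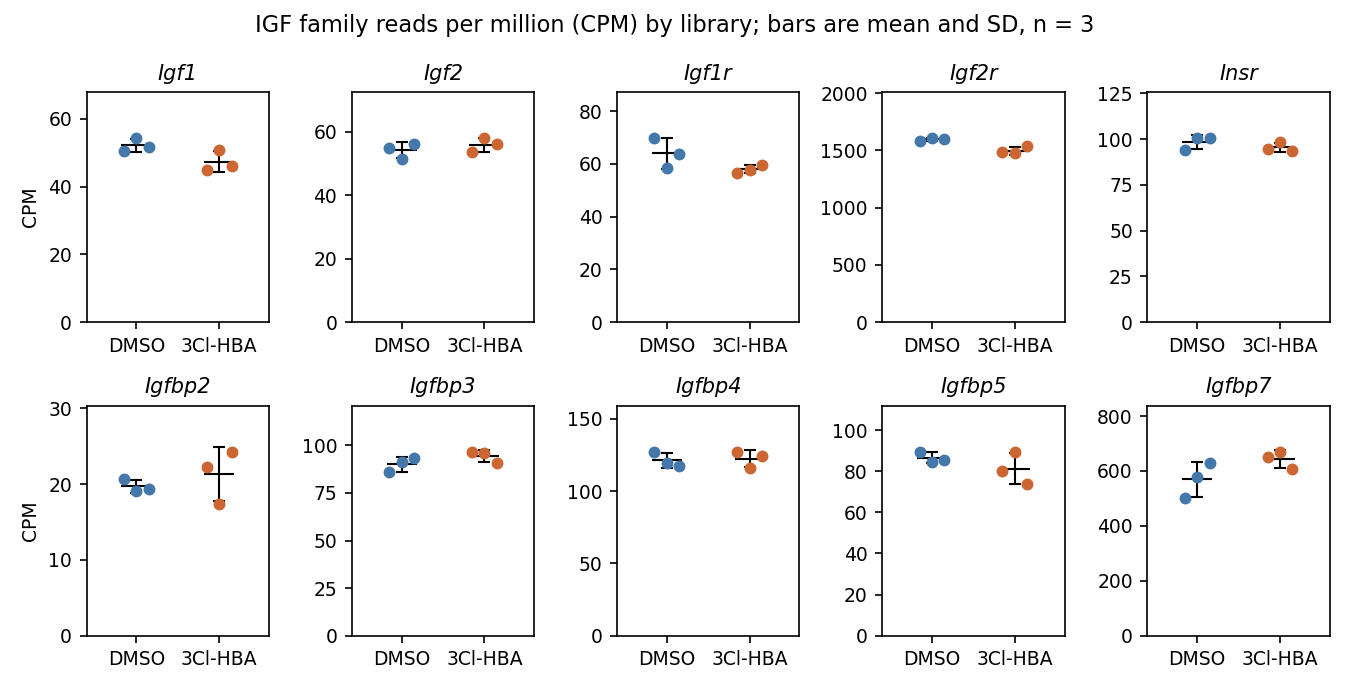
CPM (reads scaled to the library total, vertical axis from 0) of each gene in the 3 DMSO and 3 3Cl-HBA libraries, with black bars at the mean and SD. The groups overlap in 9 panels, and in the Igf2r panel the 3 treated libraries, at 1474 to 1535 CPM, lie below the 3 DMSO libraries, at 1584 to 1608 CPM.

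Among the ligands, Igf1 had the lower mean after 3Cl-HBA. Its levels were 50.4, 54.4 and 51.8 CPM in DMSO replicates 1 to 3 and 45.04, 50.8 and 46.0 CPM in 3Cl-HBA replicates 1 to 3. Treated replicate 2 reached into the DMSO range, so the groups overlapped. The log2 fold change was -0.14 (95% interval -0.286 to 0.0039, SE 0.072, edgeR unadjusted p 0.0563, adjusted p 0.959). Igf2 had 54.9, 51.6 and 56.3 CPM with DMSO and 53.6, 58.1 and 56.2 CPM with 3Cl-HBA, with the lowest level in DMSO replicate 2 and the highest in 3Cl-HBA replicate 2. Its log2 fold change was 0.046 (95% interval -0.093 to 0.184, SE 0.069). It was 0.0094 without DMSO replicate 2, 0.069 without DMSO replicate 3, 0.076 without 3Cl-HBA replicate 1 and 0.018 without 3Cl-HBA replicate 2. Igf1 made up 72.9% to 75.5% of ligand FPKM in DMSO and 70.6% to 71.9% after 3Cl-HBA, ranges that do not overlap. This share was set beside the single genes as a description, with no background worked out for such shares, and was not tested.

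All 3 receptors had lower means after 3Cl-HBA, and none passed. Igf2r had 1584, 1608 and 1600 CPM with DMSO and 1483, 1474 and 1535 CPM with 3Cl-HBA. Each treated library was below each DMSO library, as for 5.22% of all genes tested, and the DMSO values were within a coefficient of variation of 0.791%. The log2 fold change was -0.093, or 6.27% lower in mean (95% interval -0.176 to -0.011, SE 0.041, edgeR unadjusted p 0.0269, adjusted p 0.959). Igf1r had 69.8, 58.3 and 63.8 CPM with DMSO and 56.6, 57.9 and 59.8 CPM with 3Cl-HBA. The treated libraries were close together, and DMSO replicate 1 was the highest of the 6. The log2 fold change was -0.14 (95% interval -0.278 to -0.00015, SE 0.069, edgeR unadjusted p 0.0498, adjusted p 0.959). It was -0.072 without DMSO replicate 1 and -0.203 without DMSO replicate 2. Insr had 98.4 ± 3.72 CPM with DMSO and 95.6 ± 2.48 CPM with 3Cl-HBA (SD, n = 3), with overlapping groups and a log2 fold change of -0.041 (95% interval -0.157 to 0.075, SE 0.058, edgeR adjusted p 0.987). Its value was -0.072 without DMSO replicate 1, -0.026 without DMSO replicate 2 and -0.062 without 3Cl-HBA replicate 2.

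The receptors are long genes in the deposited table, at 4101 bases for Igf1r, 6969 for Insr and 8787 for Igf2r, and long genes had lower fold changes across the table. Of the 2780 tested genes at least 4101 bases long, 62.9% had a log2 fold change below 0, with a median of -0.025, against a median of 0.014 in the shortest of 3 length classes of similar size. With each library's length trend removed, the log2 fold changes of Igf2r and Insr were -0.043 and -0.0058, and that of Igf1r was -0.13. Igfbp5 (5866 bases) and Igf2 (5641 bases) are also longer than Igf1r, and with the trend removed they were at -0.067 and 0.069. Igfbp7, the shortest member at 1102 bases, was then at 0.16. The cause of the length trend was not tested.

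Binding proteins showed 4 higher means and 1 lower mean after 3Cl-HBA, and none passed. Igfbp7 had 503.3, 576.7 and 628.2 CPM with DMSO and 649.6, 670.8 and 607.6 CPM with 3Cl-HBA. DMSO replicate 1 was the lowest library, and 3Cl-HBA replicate 3 lay below DMSO replicate 3, so the groups overlapped. The log2 fold change was 0.17, or 12.9% higher in mean (95% interval 0.040 to 0.310, SE 0.064, edgeR unadjusted p 0.0142, adjusted p 0.959). With single libraries left out it ran from 0.093 without DMSO replicate 1 to 0.248 without DMSO replicate 3. Over all alternatives its adjusted p ran from 0.0779 to 1.00. Igfbp7 overlaps Polr2b, an RNA polymerase subunit gene, and Rpl39 on the opposite strand, and since the strand setting of the counting is not given in the sources used here, reads in the overlap cannot be told apart. Polr2b had 111.9, 120.7 and 114.3 CPM with DMSO and 111.3, 119.3 and 114.3 CPM with 3Cl-HBA (log2 fold change -0.0079, SE 0.056).

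The other binding proteins had smaller or less even differences. Igfbp3 had 90.1 ± 3.90 CPM with DMSO and 94.5 ± 3.27 CPM with 3Cl-HBA (SD, n = 3). Its log2 fold change was 0.068 (SE 0.059), 0.033 without DMSO replicate 1 and 0.094 without 3Cl-HBA replicate 3. Igfbp4 had 121 ± 5.29 and 122.5 ± 5.96 CPM (0.012, SE 0.056), a value that ran from -0.016 to 0.051 when single libraries were left out. Igfbp5 had 86.7 ± 2.60 and 81.2 ± 7.61 CPM, the one binding protein with a lower mean (-0.093, SE 0.064), and its lowest library was 3Cl-HBA replicate 3 at 74.0 CPM. Without that library its log2 fold change was -0.033, and without 3Cl-HBA replicate 2 it was -0.17. Igfbp2 had 20.7, 19.1 and 19.4 CPM with DMSO and 22.3, 17.4 and 24.3 CPM with 3Cl-HBA, so the treated libraries held both its lowest and its highest levels. The log2 fold change was 0.11 (SE 0.11), 0.24 without 3Cl-HBA replicate 2 and -0.00086 without 3Cl-HBA replicate 3.

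**Figure D3:**
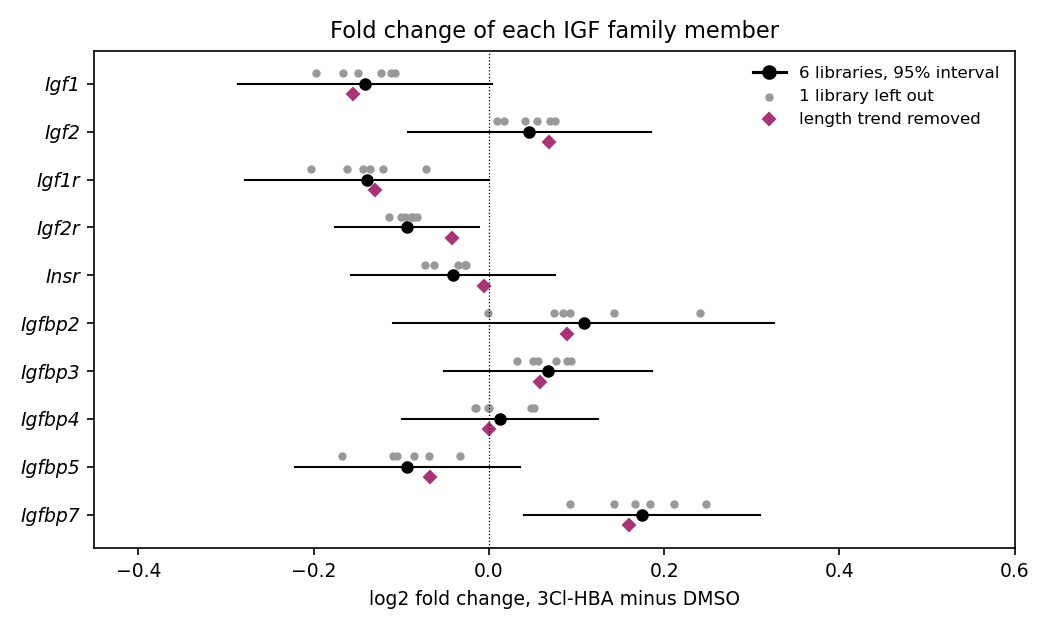
Log2 fold change of each gene (horizontal axis), 3Cl-HBA minus DMSO, with black points and lines for the fit to 6 libraries and its 95% interval, grey points for fits without 1 library and diamonds for the fit with the length trend removed. The fits to 6 libraries run from -0.14 for Igf1 to 0.17 for Igfbp7, and the Igf2r diamond lies at -0.043.

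Scatter between libraries differed among members and was set against the value expected from read counting alone. With 3 libraries in each group, the observed value can fall on either side of it. Igf2r and Igfbp7 had the most reads, so counting alone would give coefficients of variation of 0.671% and 1.12% in DMSO. Igf2r showed 0.791%, close to its counting value, and Igfbp7 showed 11.0%. In DMSO, Igf1 (3.81% against 3.71%) and Igfbp5 (3.00% against 2.88%) were also near their counting values. Igf1r was above its own (8.97% against 3.35%) and Igfbp2 below (4.19% against 6.04%). After 3Cl-HBA, Igf2r varied by 2.18% against 0.650%, Igf1 by 6.57% against 3.65% and Igfbp7 by 5.01% against 0.991%. Igfbp2 varied by 16.8% against 5.46% and Igfbp5 by 9.37% against 2.78%, while Igf1r was below its counting value, at 2.73% against 3.30%.

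Binding proteins were also summed and set against ligands in each treatment. Summed binding protein FPKM was 16.2 to 18.8 times summed ligand FPKM in DMSO and 19.9 to 21.9 times after 3Cl-HBA, so the ranges did not overlap. Without Igfbp7 the ratio was 3.27 to 3.50 in DMSO and 3.32 to 3.95 after 3Cl-HBA, and the ranges overlapped. For single genes, the groups did not overlap in 10.5% of all genes tested. No such background was worked out for these sums, and no test was made of them.

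Markers of the cell types that make IGF family proteins were followed in the same libraries. The 6 heart muscle markers summed to 18842 to 19829 CPM with DMSO and 19072 to 19243 CPM with 3Cl-HBA, among them Tnnt2, the cardiac troponin T gene, with 2933 ± 164 CPM with DMSO and 2925 ± 99.0 CPM with 3Cl-HBA. Ryr2, the calcium release channel gene, had the smallest unadjusted p of these 6, at 988.1, 988.3 and 927.1 CPM with DMSO and 786.3, 881.7 and 913.9 CPM with 3Cl-HBA. All 3 treated libraries were below the DMSO libraries, as for 5.22% of all genes tested, and it did not pass (log2 fold change -0.17, SE 0.047, edgeR adjusted p 0.913). Fibroblast markers were abundant too, so transcripts of the family cannot be assigned to heart muscle cells alone. Among the 5 endothelial markers, Eng, an endothelial receptor, stood apart at 410.9 ± 31.6 CPM with DMSO and 411.9 ± 12.2 CPM with 3Cl-HBA. Per length Eng had 135.5 FPKM over all libraries, against 9.49 for Kdr, 8.04 for Tek, 7.37 for Cdh5 and 1.10 for Vwf. Most of the endothelial sum that follows was therefore Eng, and the other endothelial markers were low beside it. Summed over 5 endothelial markers, levels were 516 to 595 CPM with DMSO and 535 to 564 CPM with 3Cl-HBA, and over 7 smooth muscle and pericyte markers 2392 to 2626 and 2457 to 2496 CPM. The 7 fibroblast markers summed to 11976 to 12790 and 12097 to 12340 CPM, the 6 macrophage and leukocyte markers to 288 to 315 and 312 to 323 CPM, and the 4 epicardial markers to 77.9 to 82.6 and 78.4 to 78.9 CPM. For each of these sums the ranges of the groups overlapped. The 4 Schwann cell and neuronal markers summed to 12.3 to 15.2 and 14.1 to 17.03 CPM, and no listed marker was at 0 in all libraries. The 3 liver markers summed to 1.22 to 2.27 and 2.23 to 2.45 CPM, and Alb, the albumin gene, had 2 reads in all. No marker gene passed the test, and the part of cell composition in the members' values was not tested.

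Other ligands, receptors and binding proteins of the system were mostly low or absent. The insulin genes Ins1 and Ins2 had 0 reads in all 6 libraries. Igfbp1, a liver binding protein, had 2 reads in all and Igfals, a partner of the IGF1 complex in blood, had 10. Igfbp6, a binding protein that prefers IGF2, had 26.1 FPKM, a level like that of Igf1, with 28.2 ± 1.51 CPM with DMSO and 27.6 ± 1.90 CPM with 3Cl-HBA. The RNA-binding proteins that regulate Igf2 mRNA were expressed, with Igf2bp2 at 55.4 ± 2.54 and 60.6 ± 4.27 CPM, Igf2bp3 at 36.9 ± 1.07 and 35.6 ± 4.86 CPM, and Igf2bp1 at 23.2 ± 2.09 and 20.0 ± 1.12 CPM. Of the 5 tested genes of this list, 0 passed.

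As a description with no test, the genes with the pattern most like 3 members were found among 10670 genes. The measure was Pearson's r of log2 CPM over the 6 libraries, whose differences in depth and treatment are common to all genes. For Igf1 they were Tyk2 (0.987), Mre11 (0.986) and Spty2d1 (0.980), for Igf2r Tp53inp1 (0.987), Bmi1 (0.981) and Herc2 (0.980), and for Igfbp7 Gpatch11 (0.992), Ybx1 (0.991) and Sephs1 (0.987). An r above 0.9 was reached by 60, 84 and 118 candidates for the 3 members.

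Downstream genes were taken from lists of the pathway, in which 96 distinct genes were matched and 90 were tested. By edgeR 0 passed, with 8 at an unadjusted p under 0.05 (4 higher and 4 lower, 8.89% against 5.11% of all genes tested) and a smallest adjusted p of 0.950. Their median log2 fold change was -0.022, against -0.00052 for all genes tested. In 11 of the 90, or 12.2%, the groups did not overlap, near the 10.5% of all genes.

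Proteases and scavengers of IGF binding proteins were among the most abundant. Mmp2, a gelatinase, had 506 FPKM, the lysosomal protease gene Ctsd 582 FPKM, and Htra1, a secreted serine protease, 256.8 FPKM, each above the level of Igf2r. Lrp1, an endocytic receptor, had 1600, 1489 and 1527 CPM with DMSO and 1323, 1416 and 1465 CPM with 3Cl-HBA. It had the smallest unadjusted p of this list, and genes picked that way tend to have groups that lie apart. All 3 treated libraries were below the DMSO libraries, as for 5.22% of all genes tested (log2 fold change -0.14, SE 0.043, edgeR adjusted p 0.950). Pappa, the protease that cleaves Igfbp4, had 5.36 FPKM. Of 13 tested genes of this list, 0 passed, 2 had an unadjusted p under 0.05, both lower, and the median was -0.0052.

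Receptor adaptors and feedback genes gave 0 calls of 17 tested and a median of -0.013, which was 0.0078 with the length trend removed. The substrate proteins that link both kinase receptors to PI3K were at 7.62 FPKM for Irs1 and 17.3 FPKM for Irs2. The ubiquitin ligase gene Nedd4 had 2113 ± 35.5 CPM with DMSO and 2095 ± 62.8 CPM with 3Cl-HBA, and Grb10, an adaptor that inhibits both receptors, had 763.5 ± 17.6 and 778 ± 15.1 CPM. Grb14, a related inhibitor, had the smallest unadjusted p of this list (47.5 ± 4.38 and 53.6 ± 0.590 CPM, log2 fold change 0.17, SE 0.073, edgeR adjusted p 0.959), with the treated libraries above the DMSO libraries, as for 5.24% of all genes tested.

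In the PI3K-AKT-FOXO branch 18 of 22 tested genes had a log2 fold change below 0 and 4 above 0, with a median of -0.047, and 0 passed. Of all genes tested, 49.8% lay above 0. The count stayed at 18 and the median was -0.041 with the length trend removed. Akt1, the central kinase, had 255 ± 9.64 and 250.4 ± 7.50 CPM, and Pik3ca, a catalytic subunit of PI3K, 125 ± 8.60 and 122 ± 1.81 CPM. Slc2a4, the gene of the insulin-responsive glucose transporter, had 40.9, 46.8 and 42.9 CPM with DMSO and 38.2, 37.5 and 36.1 CPM with 3Cl-HBA. It had the smallest unadjusted p of this branch. Its treated libraries were below the DMSO libraries, as for 5.22% of all genes tested (log2 fold change -0.22, SE 0.077, edgeR adjusted p 0.959). The RAS-ERK branch had 8 of 14 tested genes above 0, a median of 0.0091 (-0.00031 with the length trend removed) and 0 calls, with Mapk3, the gene of the kinase ERK1, at 100.4 ± 7.07 and 109.9 ± 2.72 CPM. Of 11 FOXO-dependent transcripts 0 passed, and their median was -0.034. Txnip, the most abundant of them, had 799 ± 43.3 and 798 ± 23.6 CPM.

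**Figure D4:**
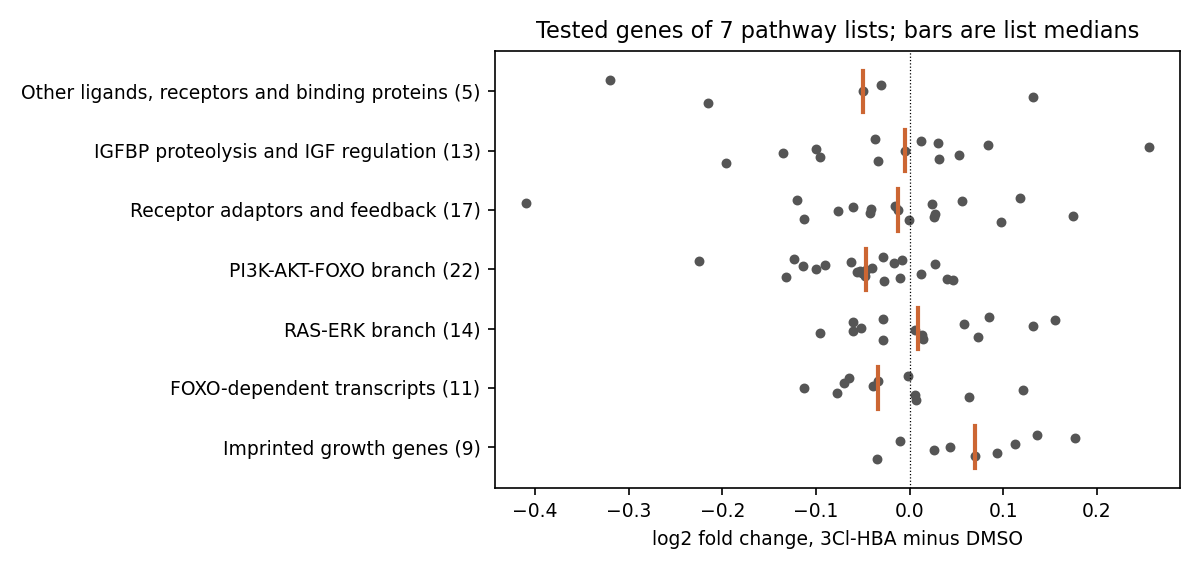
Each point is 1 tested gene of 7 pathway lists (number in brackets), placed by its log2 fold change, 3Cl-HBA minus DMSO, with a bar at the list median. The medians lie between -0.050 and 0.070, and 0 of these genes passed the test.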

How the data were processed

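Per the file headers, the authors deposited 1 whole-number read count for each gene and library with no scaling, and FPKM beside it. The deposited FPKM equal count over gene length and library total, within a relative gap of 8.2e-08. Not given in the sources used here are the aligner, counter, strand setting, build and annotation. The kit removes ribosomal RNA and DESeq2 is the named tool, per the labels' protocols.

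Library totals were 13240800 to 17202191 reads. Counts were fitted in R 4.3.3 with edgeR 4.0.16 (TMM, filterByExpr with a minimum count of 10, robust glmQLFit and glmQLFTest, no block), which tested 13903 genes, with calls at a Benjamini-Hochberg adjusted p under 0.05. SEs are the unshrunk log2 fold change over the square root of F. CPM use TMM-scaled totals. Alternatives were DESeq2 1.42.0 (adjusted p NA for 4143 genes), limma-voom (limma 3.58.1), other scalings, no filter, removal of each library's length trend, a replicate block and leaving out each library. Promoters came from a RefSeq table of GRCr8. The fit was tested on simulated counts. Of 99 pathway and 44 marker symbols, 96 and 42 were matched. The members and lists were chosen with earlier results of these data known. Named genes are all members, the 3 most abundant tested genes and the gene with the smallest p of each list (not all are printed), and the closest patterns. Htra1, Pappa, Irs1, Irs2, Mest, Dlk1, Polr2b, Rpl39 and the untested genes named fall outside this rule and were chosen after their values were seen. Ryr2, Lrp1, Grb14 and Slc2a4 had the smallest p of their lists, which favours groups that lie apart. The share over all genes tested is therefore no matched background for them. H19, Irs4, Meg3, Col1a2 and Pecam1 were not analysed here. An exact permutation test of 3 against 3 libraries cannot go below 0.10 and was not used.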

Additional observations from a re-analysis of the deposited data

How the results depend on the processing

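Of 130 values (10 members under 13 alternatives), 125 kept their direction, 0 crossed the threshold and 5 turned sign. With single libraries left out, Igfbp4 ran from -0.016 to 0.051 and Igfbp2 from -0.00086 to 0.24; the cause was not tested. Of all genes tested, edgeR called 0 (711 at an unadjusted p under 0.05); 2 were called with no filter on low counts, 1 by limma-voom, 0 by DESeq2 (405 at an unadjusted p under 0.05) and 0 to 8 with single libraries left out (8 without DMSO replicate 3). None of these was a member or pathway gene. With per-length CPM, 6 of 9 neighbouring pairs kept 1 order in all libraries. A replicate block gave 0 calls (604 at an unadjusted p under 0.05, of which 1 was a member), turned no member's sign and put Igfbp7 at 0.18. Deviations of same-numbered libraries had correlations of -0.069, -0.044 and -0.045, and those of differently numbered libraries ran from -0.015 to 0.060. With 3 libraries in each group this check cannot settle whether the samples were made in pairs. Igfbp2 had the fewest reads of the members, with 256 in its smallest library.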

Other observations

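Igf2 and Igf2r belong to the genes known to be imprinted, that is expressed from 1 parental allele, in at least some tissues or transcript forms. Other such growth genes were measured in the same libraries, with counts that do not separate alleles or transcript forms. Of 9 tested, 0 passed edgeR's test, and 7 log2 fold changes lay above 0 (median 0.070), against 49.8% of all genes tested. With the length trend removed, 1 of the 9 lay below 0 and the median was 0.053. Per length, Grb10 was the most abundant at 147.6 FPKM, followed by Mest at 123.8 FPKM, Dlk1 at 80.0 FPKM and Gnas at 76.2 FPKM, all above Igf2 at 9.77 FPKM. Plagl1, a transcription factor of the same network, had 75.5 ± 8.01 CPM with DMSO and 82.9 ± 7.11 CPM with 3Cl-HBA, a log2 difference of 0.14 (SE 0.070, edgeR adjusted p 0.960).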
